A study of Homo sapiens with 8 samples.

Results

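The genes described here are the cyclin-dependent kinase (CDK) inhibitors and the D-type cyclins, 10 of the 23562 rows of a gene count table from the human acute myeloid leukemia line OCI-AML5. They were taken as the rows named CDKN1A, CDKN1B, CDKN1C, CDKN2A, CDKN2B, CDKN2C, CDKN2D, CCND1, CCND2 and CCND3, whatever their values, and all 10 had a row. The sgCEBPD group was 4 libraries (sgCEBPD 1 to 4) of cells given lentiCRISPRv2, a lentivirus that carries Cas9 and a guide RNA, with guides specific for CEBPD, which encodes the transcription factor C/EBP delta. The sgControl group was 4 libraries (sgControl 1 to 4) of the same line given the same vector with non-specific guides. Every library had a guide of its own, so the spread within a group is also a spread between guides, and cells of both groups had gone through lentiviral delivery. The labels do not say whether cells were cloned or pooled, whether any delivery was repeated, or when RNA was taken after it. Because nothing says the libraries of a group came from repeated experiments, the p-values weigh only how these libraries vary, a spread that may be technical. The question put to these libraries was what changes in the transcriptome of OCI-AML5 when CEBPD is targeted.

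Progress from G1 into S phase depends on CDK4 and CDK6, which need a D-type cyclin as their partner and then phosphorylate the retinoblastoma protein. The INK4 inhibitors (p16INK4a from CDKN2A, p15INK4b from CDKN2B, p18INK4c from CDKN2C and p19INK4d from CDKN2D) bind CDK4 and CDK6 and keep the D cyclins off. The CIP/KIP inhibitors (p21 from CDKN1A, p27 from CDKN1B and p57 from CDKN1C) bind complexes of cyclin and CDK, above all those of CDK2, and p21 and p27 also help D cyclins assemble with CDK4. CDKN2A has a second start whose product, p14ARF, shares no reading frame with p16INK4a. In acute myeloid leukemia the best known event in this family is the silencing of CDKN2B by promoter methylation.

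The stretches just upstream of the starts are shown for CDKN1B, whose levels separated the groups, for CDKN1A, which stood highest in a single library, and for both starts of CDKN2A, which had no read in that library. They are the 250 bases before each start, 5′ to 3′ on the gene's strand, from RefSeq on GRCh38.p14. Capitals mark matches, on either strand, to a C/EBP motif (TTGCNNAA), a CCAAT box (CCAAT) or a GC box (GGGCGG); matches to the GC box that overlap each other were each counted.

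CDKN1A upstream of its start, chr6:36678464-36678713, plus strand: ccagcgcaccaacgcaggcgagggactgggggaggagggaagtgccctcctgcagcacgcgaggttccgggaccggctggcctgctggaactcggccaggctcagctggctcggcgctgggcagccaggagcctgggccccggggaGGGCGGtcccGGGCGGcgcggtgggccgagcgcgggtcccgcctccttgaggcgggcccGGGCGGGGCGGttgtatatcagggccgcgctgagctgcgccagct
CDKN1B upstream of its start, chr12:12717118-12717367, plus strand: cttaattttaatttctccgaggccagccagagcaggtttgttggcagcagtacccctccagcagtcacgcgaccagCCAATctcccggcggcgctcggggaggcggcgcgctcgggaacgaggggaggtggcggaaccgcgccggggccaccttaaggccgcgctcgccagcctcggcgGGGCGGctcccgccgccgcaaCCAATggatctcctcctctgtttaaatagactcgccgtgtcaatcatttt
CDKN2A upstream of the p14ARF start, chr9:21995325-21995574, minus strand: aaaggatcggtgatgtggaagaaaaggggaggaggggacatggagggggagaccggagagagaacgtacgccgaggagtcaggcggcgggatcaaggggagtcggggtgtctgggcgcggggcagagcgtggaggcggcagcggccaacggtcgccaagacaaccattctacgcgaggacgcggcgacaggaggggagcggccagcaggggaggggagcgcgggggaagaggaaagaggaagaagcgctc
CDKN2A upstream of the p16INK4a start, chr9:21974858-21975107, minus strand: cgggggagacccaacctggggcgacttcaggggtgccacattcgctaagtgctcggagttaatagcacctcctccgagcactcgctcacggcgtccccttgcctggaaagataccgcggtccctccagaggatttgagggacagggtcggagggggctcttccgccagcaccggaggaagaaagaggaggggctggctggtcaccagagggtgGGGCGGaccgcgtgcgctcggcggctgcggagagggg

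CDKN1B held 2 CCAAT boxes and 1 GC box, CDKN1A 4 GC boxes, the p16INK4a start 1 GC box and the p14ARF start no match. Altogether, 12 starts of 7 of the genes were matched; CDKN1C, CCND1 and CCND2 are named only. The C/EBP motif was found at 2 of the 12 starts, both of CDKN2C, against 9.05% of the 35116 starts in the table. The CCAAT box was found at 5 of 12 starts, against 32.0% of all, and the GC box at 9 of 12, against 42.6%. A match is a string of letters and says nothing of binding.

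Library totals lay between 10217751 and 11521209 counts, and levels are given in CPM, counts scaled to library size after TMM, which trims extreme genes before libraries are scaled to each other. CEBPD stood at 107, 209, 195 and 164 CPM in sgCEBPD 1 to 4, against 216, 204, 205 and 202 CPM in sgControl 1 to 4, a log2 difference of -0.29 (adjusted p = 0.551 in edgeR). A Cas9 cut can disrupt a protein and leave transcript, so this level does not show whether C/EBP delta was lost. sgCEBPD 3 stood apart: it lay at 101 on a first principal component that held 56.6% of the variance, and the other 7 libraries lay between -22.1 and -0.23. It was outside the range of the other 7 libraries at 69.7% of tested genes. Whether sgCEBPD 3 holds the same cells as the other libraries cannot be told from gene counts, and this bears on its values and on every fold change over 8 libraries. Each result is therefore given for all 8 libraries and for the 7 without sgCEBPD 3, whose own values stand beside them with no test.

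Of the markers of a myeloid progenitor line, SPI1, PTPRC, CD33, CD34, KIT and MPO were present in every library, while ANPEP stayed at or under 0.473 CPM and CSF2RA at or under 1.08 CPM. The summed level of the progenitor list was 1505 CPM in sgCEBPD 3 and 912 to 1017 CPM in sgCEBPD 1, 2 and 4, against 823 to 907 CPM in sgControl. PTPRC (943 CPM) and SPI1 (433 CPM) carried that sum in sgCEBPD 3, while markers of immature cells were low there. KIT, a stem cell factor receptor, stood at 2.46 CPM in sgCEBPD 3 and 18.1 to 26.1 CPM in sgCEBPD 1, 2 and 4, against 23.6 to 51.9 CPM in sgControl. CD34 stood at 7.86 CPM in sgCEBPD 3 and 29.9 to 67.5 CPM in sgCEBPD 1, 2 and 4, against 13.4 to 104 CPM in sgControl. The 11 monocyte and macrophage markers with a row summed to 1099 CPM in sgCEBPD 3 and 542 to 735 CPM in sgCEBPD 1, 2 and 4, against 551 to 601 CPM in sgControl. CD14 was among them, at 41.0 CPM in sgCEBPD 3 and at most 2.74 CPM elsewhere. CSF1R made 538 CPM of the sum in sgCEBPD 3. Of the 6 monocyte and macrophage markers tested, 5 were higher there than in every other library, and LYZ (80.9 CPM) lay inside the control range of 74.9 to 170 CPM. Among all tested genes, 69.7% were higher or lower in sgCEBPD 3 than in every other library. The lymphocyte markers (3 of 6 had a row) summed to 57.2 CPM in sgCEBPD 3, of which CD3D made 52.7 CPM, and to 2.46 to 3.71 CPM in sgCEBPD 1, 2 and 4, against 5.62 to 6.06 CPM in sgControl. CD79A was below the controls there, at 3.05 CPM in sgCEBPD 3 against 5.14 to 5.95 CPM in sgControl. The erythroid and megakaryocyte markers (3 of 8 had a row) summed to 58.7 CPM in sgCEBPD 3 and 25.0 to 38.0 CPM in sgCEBPD 1, 2 and 4, against 17.8 to 39.4 CPM in sgControl. In the comparison without sgCEBPD 3, edgeR called 4 of the markers: CD33 fell by 0.35 on the log2 scale (adjusted p = 0.0199) and CD79A fell by 1.39 (0.0149), while PTPRC rose by 0.44 (0.0305) and TYROBP by 1.27 (0.0269). These were 2 of 6 progenitor, 1 of 6 monocyte and macrophage and 1 of 1 lymphocyte markers tested, where 2.01% of all 14047 genes passed. With 8 libraries edgeR called 0 of the markers, where 0.0795% of all genes passed. KIT (-0.55, adjusted p = 0.465), MRC1 (1.79, 0.232), CSF1R (0.13, 0.531) and ITGA2B (0.09, 0.919) did not pass in edgeR without sgCEBPD 3. DESeq2 called CD33, CD79A, TYROBP and MRC1 in both comparisons and PTPRC with 7 libraries. It called 2.11% of all genes with 8 libraries and 4.24% with 7. The fibroblast markers COL1A1 and COL1A2 together stayed at or under 0.518 CPM. Whether these shifts have a part in the results on cell cycle genes was not tested; in RNA from bulk cells, fewer cells that use a gene and less RNA per cell cannot be told apart.

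edgeR called no CDK inhibitor or D cyclin in either comparison, and DESeq2 called CDKN1B in both. With 8 libraries, edgeR's quasi-likelihood test passed 0 of the 8 genes tested at an adjusted p of 0.05, where 0.0795% of all 13838 genes tested did. Without sgCEBPD 3, 0 of 8 passed, where 2.01% of 14047 genes did. At an unadjusted p under 0.05, 1 of the 8 (CDKN1B) passed with 8 libraries, where 11.4% of all genes did, and 2 (CDKN1B and CCND3) with 7, where 15.5% did. DESeq2 called 1 of the 8, CDKN1B, in each comparison, where it called 2.11% of all genes with 8 libraries and 4.24% with 7. Under edgeR without the filter on low counts, CDKN1B and CDKN1C were called with 7 libraries, where 403 of all 23562 rows were. CDKN1C and CDKN2B, at no more than 5.21 CPM in any library, were removed by the filter on low counts and are described from their counts. The median log2 fold change of the 8 tested genes was -0.00 with 8 libraries and 0.06 with 7, where it was 0.00 over all genes in both.

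**Figure D1:**
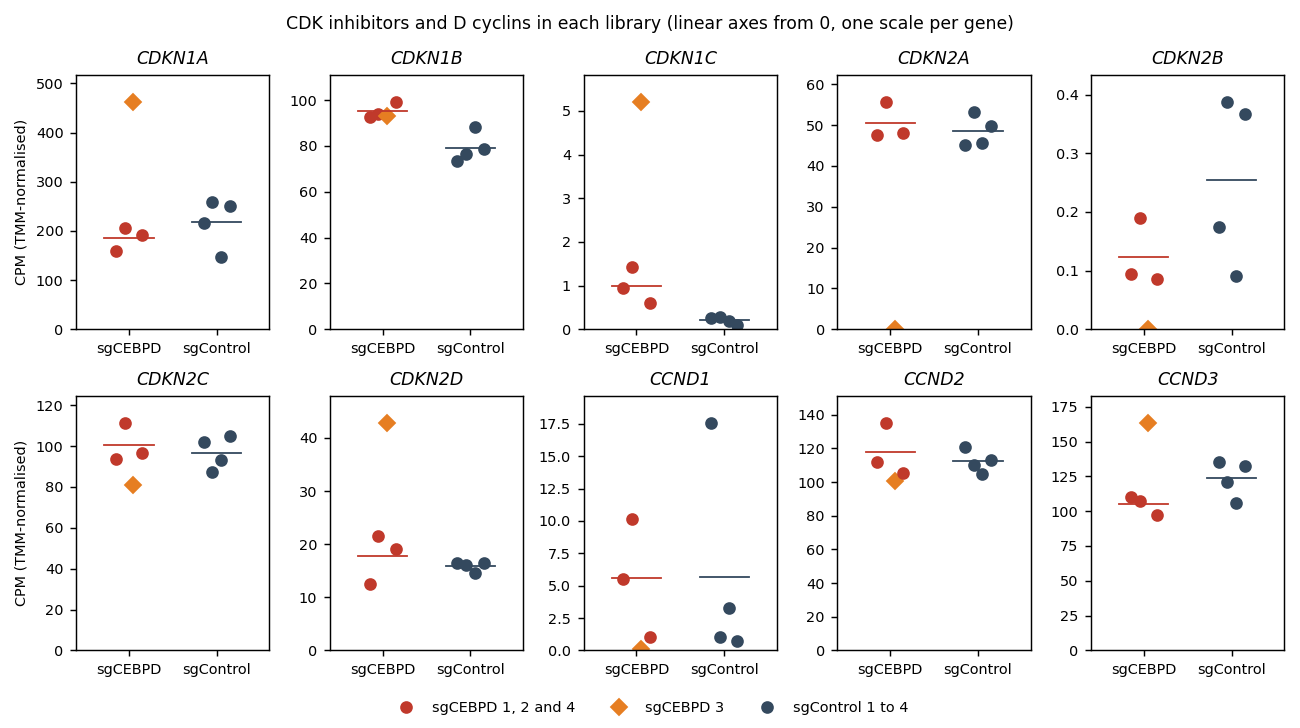
CPM of each CDK inhibitor and D cyclin by library, on linear axes from 0 with a scale for each gene; red circles are sgCEBPD 1, 2 and 4, the orange diamond is sgCEBPD 3, dark circles are sgControl 1 to 4, and lines are the means of sgCEBPD 1, 2 and 4 and of sgControl. CDKN1B and CDKN1C do not overlap between the groups, and sgCEBPD 3 is far from the other libraries at CDKN1A (463 CPM), CDKN2A (0 CPM) and CDKN2D (42.8 CPM).

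Levels were compared between genes only per length, as CPM per kb of annotated exon. The length joins all annotated exons of a gene and can exceed that of the transcript present, so the order of genes depends on it. The SDs cover the spread between libraries only. On the scale of CPM per kb the controls held CDKN1A highest, at 71.4 ± 16.8 CPM per kb (SD, n = 4), with no overlap with any other member. CDKN2C at 29.2 ± 2.45 and CDKN1B at 28.2 ± 2.29 CPM per kb came next and lay within each other's spread, and CCND3 stood at 21.3 ± 2.29 CPM per kb. CCND2 at 15.7 ± 0.917 CPM per kb was below CCND3 in all 4 controls, and CDKN2A (11.2 ± 0.878) and CDKN2D (10.6 ± 0.603) below it did not differ beyond their spread. CCND1 averaged 1.17 ± 1.66 CPM per kb, with an SD larger than its mean. CDKN1C at 0.0834 and CDKN2B at 0.0629 CPM per kb were close to the limit of detection, and their ranges overlapped.

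Among the CIP/KIP inhibitors, CDKN1B (chr12:12715058-12722371, plus strand, GENCODE 29 on GRCh38), the gene of p27, stood slightly higher with every CEBPD guide than with any control guide, a difference that edgeR did not call. It stood at 92.5, 93.8, 93.1 and 99.2 CPM in sgCEBPD 1 to 4, against 73.5, 76.3, 88.3 and 78.8 CPM in sgControl 1 to 4. All 4 sgCEBPD libraries, sgCEBPD 3 included, lay above all 4 controls, and sgControl 3 was the control nearest to them. Among all genes tested, 4.96% were higher without overlap with 8 libraries and 6.89% with 7. The means were 94.7 ± 3.09 CPM in sgCEBPD and 79.2 ± 6.44 CPM in sgControl (SD, n = 4 each). On the log2 scale sgCEBPD over sgControl came to 0.26 (SE 0.07; adjusted p = 0.287 in edgeR), and the exact two-sided permutation test over 70 assignments gave p = 0.0286, the smallest it can give. Without sgCEBPD 3 the values were 0.27 (SE 0.07; adjusted p = 0.0776 in edgeR) and p = 0.0571 in the exact permutation test over 35 assignments. The call depended on the tool: DESeq2 gave an adjusted p of 0.0485 with 8 libraries and 0.0285 with 7, and edgeR gave 0.0428 with 7 when sgControl 3 was also left out. With library totals in place of TMM, sgCEBPD 3 (89.0 CPM) fell just below sgControl 3 (89.2 CPM), so that the groups overlapped.

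CDKN1C (chr11:2883213-2885773, minus strand), the gene of p57 and an imprinted gene expressed from the maternal copy, was near the limit of detection in the controls and above it with every CEBPD guide. Its counts were 10, 15, 53 and 7 in sgCEBPD 1 to 4, against 3, 3, 2 and 1 in sgControl 1 to 4. The lowest sgCEBPD library held over 2-fold more reads than the highest control, at totals that differed far less. In CPM these are 0.936, 1.42, 5.21 and 0.605 in sgCEBPD 1 to 4, against 0.262, 0.291, 0.182 and 0.0918 in sgControl. The groups did not overlap under any of the 3 scalings, with or without sgCEBPD 3; among all rows of the table, 3.65% were higher without overlap with 8 libraries and 5.21% with 7. The exact two-sided permutation test on log2(CPM + 0.1) gave p = 0.0286 in both comparisons, the smallest that either allows. In a fit without the filter on low counts, which tested all 23562 rows, the adjusted p in edgeR was 0.295 with 8 libraries (log2 fold change 3.21, SE 0.76) and 0.0284 with 7 (2.19, SE 0.51). Exact Poisson 95% intervals, which cover counting error only, ran from 0.243 to 1.25 CPM in sgCEBPD 4 and from 0.0600 to 0.850 CPM in sgControl 2, so these 2 libraries cannot be told apart by depth. The 3 libraries sgCEBPD 1, 2 and 4 together held 32 counts, against 9 in the 4 controls.

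CDKN1A (chr6:36676460-36687339, plus strand), the gene of p21, had no shared direction across the CEBPD guides. It stood at 159, 206, 463 and 192 CPM in sgCEBPD 1 to 4, against 215, 259, 147 and 250 CPM in sgControl 1 to 4. The value of sgCEBPD 3 was 2.12-fold the control mean, while the other 3 lay inside the control range. In edgeR its log2 fold change of 0.23 (SE 0.34; adjusted p = 0.784) turned to -0.23 (SE 0.22; adjusted p = 0.705) without sgCEBPD 3. Without sgCEBPD 3, the means were 186 ± 24.4 CPM in sgCEBPD (SD, n = 3) and 218 ± 51.2 CPM in sgControl (SD, n = 4). In sgCEBPD 3, 8.15% of tested genes were over 2-fold above the control mean.

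**Figure D2:**
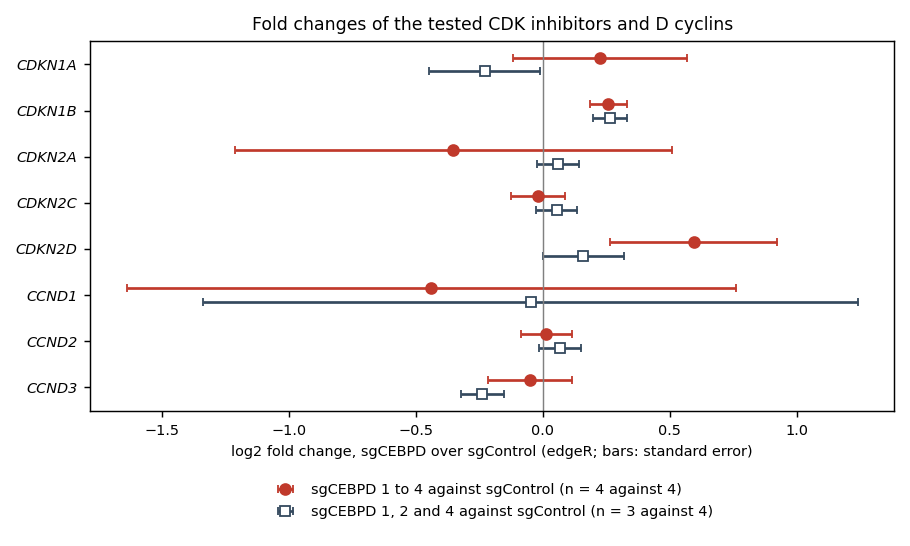
Log2 fold change of sgCEBPD over sgControl from edgeR for the 8 tested genes, with bars of 1 standard error; red circles use all 8 libraries and open squares leave out sgCEBPD 3. CDKN1B has the same value in both (0.26 and 0.27), CDKN1A lies at 0.23 and -0.23, and CCND1 has the widest bars.

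Among the INK4 inhibitors, CDKN2A (chr9:21967753-21995301, minus strand) was expressed at an even level in 7 libraries and had no read in sgCEBPD 3. Its counts were 510, 589, 0 and 558 in sgCEBPD 1 to 4, against 517, 550, 503 and 542 in sgControl 1 to 4. In CPM, sgCEBPD 1, 2 and 4 held 47.7, 55.7 and 48.2, against 45.2, 53.3, 45.7 and 49.7 in sgControl 1 to 4. These 7 libraries overlapped fully: without sgCEBPD 3 the means were 50.5 ± 4.49 CPM in sgCEBPD (SD, n = 3) and 48.5 ± 3.80 CPM in sgControl (SD, n = 4). Between them the log2 difference in edgeR was 0.06 (SE 0.08; adjusted p = 0.795), and with sgCEBPD 3 in the fit it was -0.35 (SE 0.86; adjusted p = 0.868). A count of 0 at the depth of sgCEBPD 3 allows up to 3 counts, or 0.295 CPM, so CDKN2A was at least 164-fold lower there than the control mean. Counts per gene cannot separate the p16INK4a and p14ARF transcripts, so both together were at 0.

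Few rows did the same. In sgCEBPD 3, 11 rows had 0 counts while every other library held at least 10 CPM, and in each of the other 7 libraries no row did so. The genes whose pattern over the 8 libraries was most like that of CDKN2A, among 10815 genes with a mean of at least 5 CPM, were PTPRM (a receptor tyrosine phosphatase), BACE2 (an aspartyl protease) and KCNG1 (a potassium channel subunit). Their centred log2 levels differed from those of CDKN2A by a root mean square of 0.27, 0.30 and 0.39 over the 8 libraries. All 3 were at 0 CPM in sgCEBPD 3, which follows from the search, because the 0 of CDKN2A in sgCEBPD 3 dominates its pattern. In the other libraries PTPRM stood at 30.4 to 50.2 CPM, BACE2 at 30.0 to 51.7 CPM and KCNG1 at 18.7 to 26.7 CPM.

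CDKN2A lies in 9p21, and its neighbours differed from gene to gene in sgCEBPD 3; CDKN2B also had 0 counts there, but no more than 4 in any library. MTAP, the methylthioadenosine phosphorylase gene that is often deleted together with CDKN2A in tumours, stood at 30.6 CPM in sgCEBPD 3 and 51.0 to 59.1 CPM in sgCEBPD 1, 2 and 4, against 56.8 to 60.4 CPM in sgControl. The level in sgCEBPD 3 was 52.4% of the control mean and below every other library. CDKN2B-AS1 (ANRIL), the antisense RNA that starts beside CDKN2A and runs across CDKN2B, stood at 5.80 CPM in sgCEBPD 3 and 5.53 to 7.95 CPM in sgCEBPD 1, 2 and 4, against 7.17 to 9.54 CPM in sgControl. KLHL9, a ubiquitin ligase adaptor, stood at 37.8 CPM in sgCEBPD 3 and 33.7 to 44.2 CPM in sgCEBPD 1, 2 and 4, against 36.9 to 42.5 CPM in sgControl, so that the groups overlapped. FOCAD stood at 47.7 CPM in sgCEBPD 3 and 65.4 to 69.1 CPM in sgCEBPD 1, 2 and 4, against 64.9 to 78.8 CPM in sgControl. HACD4, an enzyme of very long fatty acid synthesis that was singled out after its values were seen, had 3 counts in sgCEBPD 3 (0.295 CPM) and 36.8 to 38.3 CPM in sgCEBPD 1, 2 and 4, against 29.5 to 38.8 CPM in sgControl. The run of levels along the chromosome in sgCEBPD 3 was thus broken: HACD4 and CDKN2A were near or at 0, and KLHL9 and MTAP between them were not. Without sgCEBPD 3, 0 of the 3 tested genes of the 9p21 list (MTAP, CDKN2B-AS1 and KLHL9) passed the threshold in edgeR, at an unadjusted p under 0.05 or in DESeq2. CDKN2B-AS1 overlaps CDKN2A and CDKN2B on the opposite strand, and without a stated strand setting its reads and theirs cannot be told apart.

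**Figure D3:**
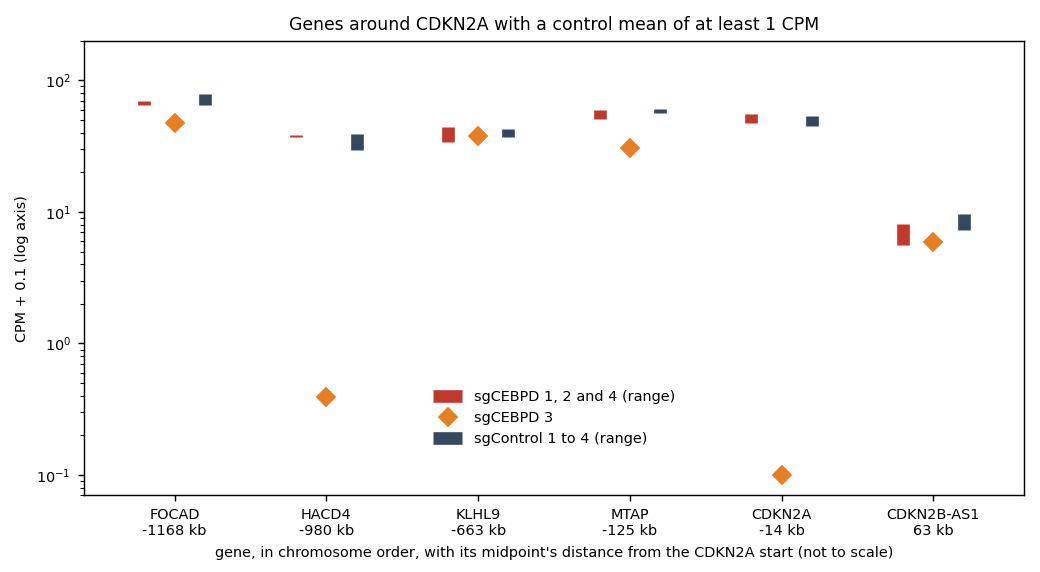
Level of CDKN2A and its neighbours within 1200 kb that averaged at least 1 CPM in controls, as CPM + 0.1 on a log axis, with genes in chromosome order and the distance of each midpoint from the CDKN2A start in kb; bars are the range over sgCEBPD 1, 2 and 4 (red) and over sgControl 1 to 4 (dark), and diamonds are sgCEBPD 3. In sgCEBPD 3, HACD4 (0.295 CPM) and CDKN2A (0 CPM) lie far below the bars while KLHL9 (37.8 CPM) lies among them.

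CDKN2B (chr9:22002903-22009363, minus strand), the INK4 gene that is often methylated in acute myeloid leukemia, was barely detected in any library. It had 1, 2, 0 and 1 counts in sgCEBPD 1 to 4, against 2, 4, 1 and 4 in sgControl 1 to 4. The groups overlapped at a depth where a difference was not detectable, and no fold change is given.

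CDKN2C (chr1:50960745-50974633, plus strand), the gene of p18INK4c, was the INK4 gene with the highest level per length in every library but sgCEBPD 3, where CDKN2D was higher. It stood at 93.5, 111, 80.8 and 96.8 CPM in sgCEBPD 1 to 4, against 102, 87.2, 93.2 and 105 CPM in sgControl 1 to 4. The groups overlapped, and sgCEBPD 3 was the lowest of the 8 at 83.4% of the control mean. In edgeR the log2 fold change was -0.02 (adjusted p = 0.948) with 8 libraries and 0.05 (adjusted p = 0.814) with 7.

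CDKN2D (chr19:10566462-10569059, minus strand), the gene of p19INK4d, was even in the controls and spread out among the CEBPD guides. It stood at 12.5, 21.5, 42.8 and 19.2 CPM in sgCEBPD 1 to 4, against 16.4, 16.1, 14.5 and 16.4 CPM in sgControl 1 to 4. sgCEBPD 3 was 2.70-fold above the control mean, sgCEBPD 2 and 4 lay above all controls and sgCEBPD 1 lay below all of them. edgeR gave 0.60 on the log2 scale (SE 0.33; adjusted p = 0.508) with 8 libraries and 0.16 (adjusted p = 0.710) with 7.

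Per length of annotated exon, the INK4 sum in sgCEBPD 3 lay within the range of the other libraries, while its make-up differed. The sum and its shares rest on the lengths used, 4329 bases for CDKN2A and 1503 bases for CDKN2D. In CPM, without division by length, CDKN2C (80.8) stayed above CDKN2D (42.8) in sgCEBPD 3. The sum was 52.8 CPM per kb in sgCEBPD 3 and 47.6 to 60.8 CPM per kb in sgCEBPD 1, 2 and 4, against 48.3 to 54.2 CPM per kb in sgControl. Within that sum CDKN2D made 53.9% in sgCEBPD 3 and 17.5 to 24.0% in sgCEBPD 1, 2 and 4, against 20.0 to 21.7% in sgControl, while CDKN2A made 0% in sgCEBPD 3 and up to 23.2% in sgCEBPD 1, 2 and 4, against up to 24.9% in sgControl. The CIP/KIP sum, carried by CDKN1A, was 187 CPM per kb in sgCEBPD 3 and 85.4 to 102 CPM per kb in sgCEBPD 1, 2 and 4, against 79.5 to 112 CPM per kb in sgControl.

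**Figure D4:**
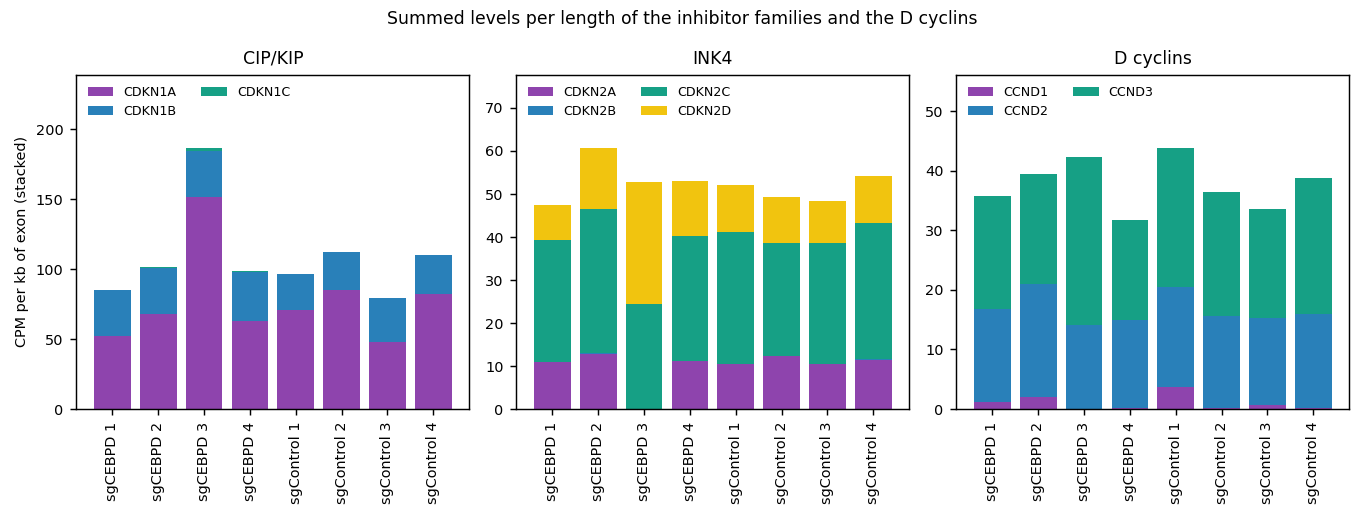
Stacked levels per length (CPM per kb of exon) of the CIP/KIP inhibitors, the INK4 inhibitors and the D cyclins in each library, on linear axes from 0; colours are genes. The CIP/KIP sum is highest in sgCEBPD 3 (187 CPM per kb), where the INK4 sum (52.8) and the D cyclin sum (42.2) lie inside the range of the other libraries but have no CDKN2A and almost no CCND1.

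Of the D cyclins, the partners of CDK4 and CDK6, CCND3 and CCND2 carried nearly all of the level. CCND3 (chr6:41934933-42050357, minus strand) stood at 110, 107, 163 and 97.3 CPM in sgCEBPD 1 to 4, against 136, 121, 106 and 132 CPM in sgControl 1 to 4. sgCEBPD 3 was the highest of the 8 at 1.32-fold the control mean, while sgCEBPD 1, 2 and 4 lay at the low end and overlapped with sgControl 3 only. Without sgCEBPD 3, the means were 105 ± 6.77 CPM in sgCEBPD (SD, n = 3) and 124 ± 13.3 CPM in sgControl (SD, n = 4). On the log2 scale edgeR then gave -0.24 (SE 0.08; unadjusted p = 0.0189, adjusted p = 0.214), and with all 8 libraries the value was -0.05 (SE 0.17, adjusted p = 0.905).

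CCND2 (chr12:4273772-4305350, plus strand), which cytokine and STAT5 signalling raises in blood cells, stood at 112, 135, 100.5 and 106 CPM in sgCEBPD 1 to 4, against 121, 110.1, 105 and 113 CPM in sgControl 1 to 4. The groups overlapped, with sgCEBPD 2 the highest and sgCEBPD 3 the lowest of the 8. The fold change in edgeR was 0.01 on the log2 scale (adjusted p = 0.959) with 8 libraries and 0.07 (adjusted p = 0.779) with 7.

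CCND1 (chr11:69641087-69654474, plus strand), the D cyclin best known from rearrangements in mantle cell lymphoma and myeloma, was the member that varied most between control guides. It stood at 5.52, 10.1, 0.0982 and 1.04 CPM in sgCEBPD 1 to 4, against 17.6, 1.07, 3.27 and 0.734 CPM in sgControl 1 to 4. Both groups ran from about 1 CPM or less to 10 CPM or more, and the single count in sgCEBPD 3 (exact Poisson 95% interval 0.00249 to 0.547 CPM) was the lowest of the 8. The controls spanned 23.9-fold, and 99.7% of tested genes had a smaller SD of log2 CPM among controls. Its log2 fold change in edgeR was -0.44 (SE 1.20; adjusted p = 0.885) with 8 libraries and -0.05 (adjusted p = 0.991) with 7, and it turned to 1.30 and 1.70 without sgControl 1. LTO1, which overlaps CCND1 on the opposite strand, stood at 26.7 CPM in sgCEBPD 3 and 27.5 to 30.3 CPM in sgCEBPD 1, 2 and 4, against 27.5 to 30.6 CPM in sgControl, a narrow range next to that of CCND1. No gene followed CCND1 closely: the nearest of 10815 were SLFN12L, NBL1 and GPC3, at root mean square differences of 1.26, 1.27 and 1.27 on the log2 scale over the 8 libraries.

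The D cyclin sum per length was 42.2 CPM per kb in sgCEBPD 3 and 31.7 to 39.5 CPM per kb in sgCEBPD 1, 2 and 4, against 33.6 to 43.9 CPM per kb in sgControl. CCND3 made 66.7% of it in sgCEBPD 3 and 46.8 to 53.1% in sgCEBPD 1, 2 and 4, against 53.3 to 58.8% in sgControl. The shares of CCND3 in sgCEBPD 1 (53.1%) and sgControl 1 (53.3%) nearly met, and the CPM of CCND3 overlapped between the groups. Its share was highest in sgCEBPD 3.

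On its own, sgCEBPD 3 lay outside the range of the other 7 libraries at 7 of the 8 tested members, where 69.7% of all tested genes did. CDKN1A, CDKN2D and CCND3 were higher there than in every other library, and CDKN2A, CDKN2C, CCND1 and CCND2 lower. CDKN1B was the tested member inside the range. Over 2-fold from the control mean were CDKN1A, CDKN2D, CDKN2A and CCND1, 4 of 8, where 16.4% of tested genes were.

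The genes around the inhibitors and D cyclins were followed as lists of the CDKs and other cyclins, the RB and E2F genes, the ubiquitin ligases that turn these proteins over, their transcriptional regulators, and proliferation markers. None of the 19, 13, 14, 23 and 6 members of these lists, all tested, passed the threshold in edgeR in either comparison. At an unadjusted p under 0.05, the lists had 1, 2, 1, 3 and 0 members with 8 libraries, where 11.4% of all genes passed, and 2, 2, 1, 5 and 2 with 7, where 15.5% did. DESeq2 called 2 regulators in each comparison, among them ID1 with 8 libraries and ETS2 with 7, and no member of the other lists. Among the CDKs and other cyclins, 13 of 19 had a negative log2 fold change in each comparison, where 50.0% of all genes did with 8 libraries and 49.7% with 7. Their median was -0.06 with 8 libraries and -0.03 with 7, where it was 0.00 over all genes. The negative share with 8 and with 7 libraries was 69.2% and 38.5% in the RB and E2F list and 78.6% and 57.1% in the turnover list. It was 47.8% and 39.1% among the regulators and 50% and 33.3% among the proliferation markers. WEE1, the kinase that restrains CDK1, stood at 108, 102, 84.0 and 102 CPM in sgCEBPD 1 to 4, against 119, 115, 122 and 108 CPM in sgControl 1 to 4. It gave -0.16 (SE 0.05, adjusted p = 0.199 in edgeR) with 7 libraries, and sgCEBPD 1 overlapped with sgControl 4. CDC25C, the phosphatase that activates CDK1, gave 0.28 (adjusted p = 0.283), and CCNH, the cyclin of the CDK-activating kinase, -0.15 (adjusted p = 0.438).

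CDK4 and CDK6, the partners of the D cyclins, stood lower in sgCEBPD 3 than in any other library. At 69.7% of all tested genes sgCEBPD 3 lay outside the range of the other 7 libraries, in either direction. CDK6 was at 252 CPM in sgCEBPD 3 and 489 to 627 CPM in sgCEBPD 1, 2 and 4, against 377 to 573 CPM in sgControl. CDK4 was at 97.8 CPM in sgCEBPD 3 and 122 to 131 CPM in sgCEBPD 1, 2 and 4, against 127 to 144 CPM in sgControl. Both were looked up as the partners of these cyclins, outside the rule for named genes. In the comparison without sgCEBPD 3 their adjusted p in edgeR was 0.512 for CDK4 and 0.639 for CDK6. The median log2 ratio of sgCEBPD 3 to the control mean was -0.23 over the CDK and cyclin list, -0.36 over the RB and E2F list and -0.30 over the turnover list, where it was -0.02 over all tested genes. The 6 proliferation markers summed to 1901 CPM in sgCEBPD 3 and 2325 to 2493 CPM in sgCEBPD 1, 2 and 4, against 2421 to 2449 CPM in sgControl; among them MKI67 stood at 648 CPM in sgCEBPD 3 and 823 to 902 CPM in sgCEBPD 1, 2 and 4, against 907 to 980 CPM in sgControl. PCNA, the DNA polymerase clamp, stood at 135 CPM in sgCEBPD 3 and 252 to 279 CPM in sgCEBPD 1, 2 and 4, against 269 to 299 CPM in sgControl. TOP2A, a topoisomerase of dividing cells, stood at 617 CPM in sgCEBPD 3 and 699 to 792 CPM in sgCEBPD 1, 2 and 4, against 687 to 715 CPM in sgControl. The mitotic kinase genes AURKA (128 CPM in sgCEBPD 3, at most 106 CPM elsewhere) and BUB1 (186 CPM in sgCEBPD 3, at most 176 CPM elsewhere) were instead higher there than in every other library. Thus 2 of the 6 markers, AURKA and BUB1, lay above all others and 4 below, where 69.7% of all tested genes lay above or below. AURKA and BUB1 were singled out after their values were seen. With 7 libraries the adjusted p in edgeR was 0.216 for MKI67, 0.316 for PCNA and 0.401 for TOP2A.

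In the RB and E2F list, E2F7, a repressor among the E2F factors, stood at 36.7 CPM in sgCEBPD 3 and 24.6 to 28.5 CPM in sgCEBPD 1, 2 and 4, against 19.4 to 23.3 CPM in sgControl, without overlap. Its log2 fold change with 7 libraries was 0.27 (SE 0.09, adjusted p = 0.170 in edgeR). E2F6, another repressor, stood at 28.5 CPM in sgCEBPD 3 and 37.7 to 45.3 CPM in sgCEBPD 1, 2 and 4, against 47.9 to 50.7 CPM in sgControl, also without overlap, with -0.22 (adjusted p = 0.175). RB1, the gene of the retinoblastoma protein, gave 0.10 (adjusted p = 0.421), and its groups overlapped.

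Of the turnover list, CUL4B, a scaffold of the ligase that degrades p21, stood at 92.5 CPM in sgCEBPD 3 and 58.9 to 61.5 CPM in sgCEBPD 1, 2 and 4, against 50.3 to 55.4 CPM in sgControl, without overlap. With 7 libraries its log2 fold change was 0.18 (SE 0.06, adjusted p = 0.162 in edgeR). FBXO4 gave -0.17 (adjusted p = 0.346) and CUL1, the scaffold of the SKP2 ligase for p27, -0.09 (adjusted p = 0.404). Of the regulators, KDM6B, a histone demethylase that removes the repressive mark at CDKN2A, stood at 103 CPM in sgCEBPD 3 and 32.6 to 33.5 CPM in sgCEBPD 1, 2 and 4, against 25.9 to 30.6 CPM in sgControl, without overlap, and gave 0.22 (SE 0.07, adjusted p = 0.187) with 7 libraries. ETS2, which can activate CDKN2A, stood at 120 CPM in sgCEBPD 3 and 214 to 255 CPM in sgCEBPD 1, 2 and 4, against 157 to 204 CPM in sgControl. Its log2 fold change with 7 libraries was 0.38 (SE 0.10, adjusted p = 0.130), and sgCEBPD 3 lay below all 7. Genes without overlap with 8 libraries made 9.59% of all genes tested.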

How the data were processed

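RNA of 8 OCI-AML5 libraries was measured by polyA RNA sequencing. The table deposited by the authors holds whole-number read counts for each gene with no normalisation. The submitters' processing notes name FastQC, HISAT2, DESeq2 and the build hg38, without roles; the counting tool, strand setting and annotation are not given in the sources used here. Two-sided tests were run in R 4.3.3 with edgeR 4.0.16: filterByExpr (minimum count 10) with the group, TMM scaling and a robust quasi-likelihood fit on the group alone. Benjamini-Hochberg adjustment ran over every gene in the fit (threshold 0.05), and SE was taken from the log2 fold change and the root of its F. Folds and likeness used log2(CPM + 0.1) where stated. Alternatives were DESeq2 1.42.0, voom with library quality weights (limma 3.58.1), RLE scaling, library totals, no filter, each library left out, and the guide number as a block. The test scripts were tested on simulated data. Within groups, no pair of libraries differed by less than sampling noise (lowest chi-square per degree of freedom 3.55). Positions and exon lengths are from GENCODE 29.

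All 10 members are described. From the other lists the text names genes past the threshold in either comparison and the 3 with the lowest unadjusted p in the comparison of 7 libraries, of which 1 is not reported here; likeness names 3 genes for each of the 2 tested members with the largest SD of log2 CPM. The members, lists and the comparison without sgCEBPD 3 were chosen with earlier results of these data known. With totals between 10217751 and 11521209 counts, 3 counts are 0.259 to 0.295 CPM.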

Additional observations from a re-analysis of the deposited data

Results flagged for a closer look

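Among the members and the other named genes, 72 groups of 4 libraries were examined for a library far from the rest, and 6 were found. For independent groups chance would give about 1 in 20, or 3.6. These groups are not independent, because each sgCEBPD group holds sgCEBPD 3 and the other genes were named for low p-values in these data. Of the 6, 5 are values of sgCEBPD 3. CDKN1A stood at 463 CPM in sgCEBPD 3, against 159 to 206 CPM in the other sgCEBPD libraries. CDKN2A stood at 0 CPM in sgCEBPD 3, against 47.7 to 55.7 CPM in the others. CUL4B stood at 92.5 CPM in sgCEBPD 3, against 58.9 to 61.5 CPM in the others, and KDM6B at 103 CPM, against 32.6 to 33.5 CPM. PTPRC, the gene of CD45 on blood cells, stood at 943 CPM in sgCEBPD 3, against 405 to 496 CPM in the others. CCND1 stood at 17.6 CPM in sgControl 1, against 0.734 to 3.27 CPM in the other controls.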

How the results depend on the processing

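The count of genes called with 8 libraries was 11 in edgeR, 292 in DESeq2, 223 with voom and library quality weights, 20 with no filter, and 0 to 283 when each library was left out, the 283 being without sgCEBPD 3 and the 0 without sgCEBPD 2. The count with 7 libraries was 283 in edgeR, 596 in DESeq2 and 66 to 312 when each library was left out, the 66 being without sgControl 1. The cause of these differences was not tested. Members called with 8 libraries were 0, and 1 (CDKN1B) in DESeq2. With 7 libraries they were 0, and 1 (CDKN1B) in DESeq2. With 7 libraries and no filter they were 2 (CDKN1B at an adjusted p of 0.0362 and CDKN1C at 0.0284), where 403 of all 23562 rows were called. They were 0 to 1 when each of the 7 libraries was left out. The 1 was CDKN1C without sgCEBPD 4 (adjusted p = 0.0394), where it passed the filter on low counts only through its 10 and 15 counts in sgCEBPD 1 and 2, so the call gives no support, and CDKN1B without sgControl 3 (0.0428).

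Whether guide numbers pair the libraries could not be settled. The correlations of same-numbered deviations were 0.02, 0.06, -0.07 and -0.04 for numbers 1 to 4. sgCEBPD 3 stood far from the rest of its group, so it weighs on the group mean and on every sgCEBPD deviation. These low correlations therefore neither show nor exclude pairing. With the number as a replicate block, 1 gene was called with 8 libraries and none of the members. With 7, edgeR with the block called 352 genes, where 283 were called without it. Number 3 then holds only sgControl 3, so the block takes up that library and the fit rests on numbers 1, 2 and 4. Leaving out sgControl 3 without a block gave nearly the same fold changes, -0.38 for CDKN1A (adjusted p = 0.191 in edgeR) and 0.32 for CDKN1B (0.0428). Among the 352 were 2 members, CDKN1B (adjusted p = 0.0354) and CDKN1A (log2 fold change -0.38, adjusted p = 0.0110). The block also turned CCND1 to 0.37.

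CDKN1B stayed positive under every alternative, from 0.22 to 0.31 with 8 libraries (adjusted p 0.0485 to 0.697) and 0.23 to 0.32 with 7 (0.0285 to 0.213). CDKN2D stayed positive, from 0.11 (voom) to 0.81 with 8 libraries and from 0.0049 (without sgCEBPD 2) to 0.36 (without sgCEBPD 1) with 7. With 7 libraries CDKN1A ran from -0.38 to -0.13 and CCND3 from -0.31 to -0.19. Directions turned elsewhere, with no member past the threshold. With 8 libraries, voom gave -0.17 for CDKN1A, 0.029 for CDKN2C and 0.23 for CCND1, and library totals gave -0.012 for CCND2. With 7 libraries, voom gave 0.25 for CCND1. Leaving out each library gave, with 8, -0.23 to 0.40 for CDKN1A, -0.60 to 0.060 for CDKN2A, -0.0995 to 0.054 for CDKN2C, -1.35 to 1.30 for CCND1, -0.082 to 0.067 for CCND2 and -0.24 to 0.035 for CCND3. With 7, it gave -0.011 to 0.11 for CDKN2A, -0.022 to 0.11 for CDKN2C, -0.81 to 1.70 for CCND1 and -0.042 to 0.14 for CCND2. Depth limits CDKN1C and CDKN2B, whose control values lie at or below 4 counts.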
